A study of Mus musculus with 12 samples.

Results

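The transcripts described here are 34 mouse genes of the ATF4 amino acid response and of the unfolded protein response of the endoplasmic reticulum (ER), measured in cultured osteoclasts, the multinucleated cells that resorb bone. The genes were listed by name and looked up by Ensembl ID through GENCODE M21, and all 34 were found among the 55414 IDs of the count tables. They form an amino acid arm of 21 genes (serine and one-carbon enzymes, ATF4 and its targets, and amino acid transporters) and an ER arm of 13 genes (Xbp1 and the chaperones and folding enzymes). All 34 passed the filter on low counts that left 13403 genes for testing.

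Osteoclasts were grown from bone marrow macrophages of male mice aged 7 to 8 weeks, with the cytokine M-CSF (given as 30 ng/ml) and, from day 3 and for 4 days, also with RANKL, the cytokine that drives osteoclast formation. There were 4 groups of 3 libraries. Notch2 mutant Hes1 deletion cells carried both alterations, wild type Hes1 deletion cells only the Hes1 deletion, Notch2 mutant Hes1 loxP cells only the Notch2 mutation, and wild type Hes1 loxP cells neither. Hes1 encodes a transcriptional repressor that signals from Notch receptors such as Notch2 induce. Hes1 loxP denotes an intact gene flanked by loxP sites, the recognition sites of Cre recombinase. No group label gives Cre without the deletion, so the loss of Hes1 and the presence of Cre cannot be told apart here. The labels do not name the Notch2 mutation, and no source used here gives the promoter or cell type in which Hes1 was deleted. Controls were sex-matched littermates, and the 3 libraries of a group are called biological replicates, but whether each came from its own mouse is not stated, so the p-values below measure the spread between these libraries.

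ATF4 is a transcription factor whose protein is made when stress kinases phosphorylate the translation factor eIF2alpha, as happens when amino acids run short or unfolded protein gathers in the ER. It switches on the enzymes that make serine, glycine and asparagine, the carriers that bring amino acids into the cell, and regulators that damp the response. Unfolded protein in the ER also activates XBP1 and ATF6, which induce the chaperones of the ER lumen. Osteoclasts make and secrete large amounts of lysosomal enzyme and take up much amino acid while they form, and ATF4 is known to act in their RANKL-driven differentiation.

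The 250 bases before each RefSeq start site (build GRCm38.p6) were searched on both strands for the known response elements. A promoter was held for 31 of the 34 genes, and Aldh1l2, Manf and Slc7a5 had no entry. The C/EBP-ATF response element was written TGATGNAAN and was present in 3.44% of 32851 promoters. It was found in 4 of the 19 amino acid arm genes with a promoter, Asns, Atf3, Chac1 and Slc7a11, and in 1 of 12 ER arm genes, Herpud1. The ER stress response element, CCAAT and CCACG with any 9 bases between them, was present in 0.113% of all promoters and in 6 of the 12 ER arm genes, Calr, Canx, Creld2, Hsp90b1, Hspa5 and Pdia6. No amino acid arm gene held it. Its variant, ATTGG and CCACG with any 1 base between them, present in 0.0304% of promoters, was found in Herpud1. The element TGACGTGG, present in 0.563% of promoters, was in no member. A match describes letters in this window and is not evidence of binding. A gene without a match may hold the element elsewhere, since only these 250 bases were searched. Below are 120 bases of 3 promoters of each arm, each 5′ to 3′ on the strand of its gene, with the matched element in capitals (the C/EBP-ATF response element in the first 3, the ER stress response element in the last 3). These are the members that hold a match and whose values are given in full. Promoters without a match are not shown, and the values of Asns and Chac1 were added after they were seen.
Slc7a11 (chr3:50443614-50443733, minus strand): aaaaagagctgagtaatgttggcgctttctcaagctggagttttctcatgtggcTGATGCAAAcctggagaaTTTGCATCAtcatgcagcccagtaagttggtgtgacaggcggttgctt
Asns (chr6:7693210-7693329, minus strand): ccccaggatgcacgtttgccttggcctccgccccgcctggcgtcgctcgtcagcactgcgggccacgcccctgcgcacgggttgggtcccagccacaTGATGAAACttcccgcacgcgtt
Chac1 (chr2:119350992-119351111, plus strand): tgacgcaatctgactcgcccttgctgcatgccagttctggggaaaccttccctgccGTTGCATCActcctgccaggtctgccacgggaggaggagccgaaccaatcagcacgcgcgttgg
Hspa5 (chr2:34771970-34772089, plus strand): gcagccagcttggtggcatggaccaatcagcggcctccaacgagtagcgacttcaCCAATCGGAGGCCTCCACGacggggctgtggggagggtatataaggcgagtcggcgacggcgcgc
Calr (chr8:84847062-84847181, minus strand): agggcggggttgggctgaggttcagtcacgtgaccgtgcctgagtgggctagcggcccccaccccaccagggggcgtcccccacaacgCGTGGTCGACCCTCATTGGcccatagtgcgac
Pdia6 (chr12:17266469-17266588, plus strand): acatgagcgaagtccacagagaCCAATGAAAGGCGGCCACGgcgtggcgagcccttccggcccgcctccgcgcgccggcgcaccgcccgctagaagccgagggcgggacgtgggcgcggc

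The 2 matches of Slc7a11 lie on opposite strands and were 66 to 58 and 48 to 40 bases before the start. The match of Asns was 23 to 15 bases before it, that of Chac1 194 to 186 bases, and that of Hspa5 65 to 47 bases. Hsp90b1, an ER chaperone of the Hsp90 family, held a pair of ER stress response elements on opposite strands, as the map of motif positions shows.

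Each library held 13832368 to 19293772 counts in genes. Hes1 was scarce, with 0, 1 and 1 counts in Notch2 mutant Hes1 deletion libraries, 0, 0 and 2 in the wild type Hes1 deletion group, 3, 2 and 2 in the Notch2 mutant Hes1 loxP group and 6, 11 and 6 in the wild type Hes1 loxP group. Notch2 had 2235 to 3344 counts per library. The 9 osteoclast markers (among them Acp5, Ctsk and Ocstamp) had summed CPM (counts relative to library size) of 29466 to 50636, and no marker of the lists examined was at 0 in all libraries. By group, these sums were 35958 to 40644 with Notch2 mutant Hes1 deletion, 29466 to 36326 with wild type Hes1 deletion, 44869 to 50636 with Notch2 mutant Hes1 loxP and 37853 to 40774 with wild type Hes1 loxP, so that the Notch2 mutant Hes1 loxP group stood above all others. Of these 9 markers, Ctsk was the only 1 called lower with Hes1 deletion, in each genotype. No other was lower there at an unadjusted edgeR p under 0.05. Summed stromal and osteoblast markers were at 210 to 297, 324 to 348, 118 to 254 and 252 to 295 CPM in the same order of groups, highest with wild type Hes1 deletion. Summed markers of macrophages were at 4290.2 to 4862 and of neutrophils at 202 to 364 CPM over all libraries. These sums hide differences of single markers between the Notch2 mutant and wild type Hes1 loxP groups. There 3 of 7 macrophage and 1 of 10 neutrophil markers were lower at an edgeR adjusted p under 0.05, against 0.776% of all genes in either direction. The median log2 differences were -0.42 and -0.32, with 2 macrophage markers and 1 neutrophil marker above 0. Fewer cells of a type and less RNA per cell cannot be told apart in such bulk libraries.

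All 34 genes were detected in every library, over a wide range of levels. Levels per length were compared as TMM-scaled CPM per kilobase of exon (CPM per kb), TMM being a scaling between libraries, averaged over the 12 libraries. In the amino acid arm, Atf4 itself led with 104 CPM per kb. Slc3a2, the heavy chain that carries amino acid transporters to the membrane, had 52.4 and Shmt2, the mitochondrial serine hydroxymethyltransferase, 50.6 CPM per kb. At the low end stood Aldh1l2, a mitochondrial folate dehydrogenase, with 0.661, and Slc7a11, the cystine and glutamate exchanger, with 0.970 CPM per kb. The ER arm was led by Calr, the lectin chaperone calreticulin, with 632 CPM per kb, by Pdia3, a disulfide isomerase that works with it, with 238, and by Hspa5, the Hsp70 chaperone BiP, with 213. Its lowest member was Dnajb9, a co-chaperone of BiP, with 12.5 CPM per kb.

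**Figure D1:**
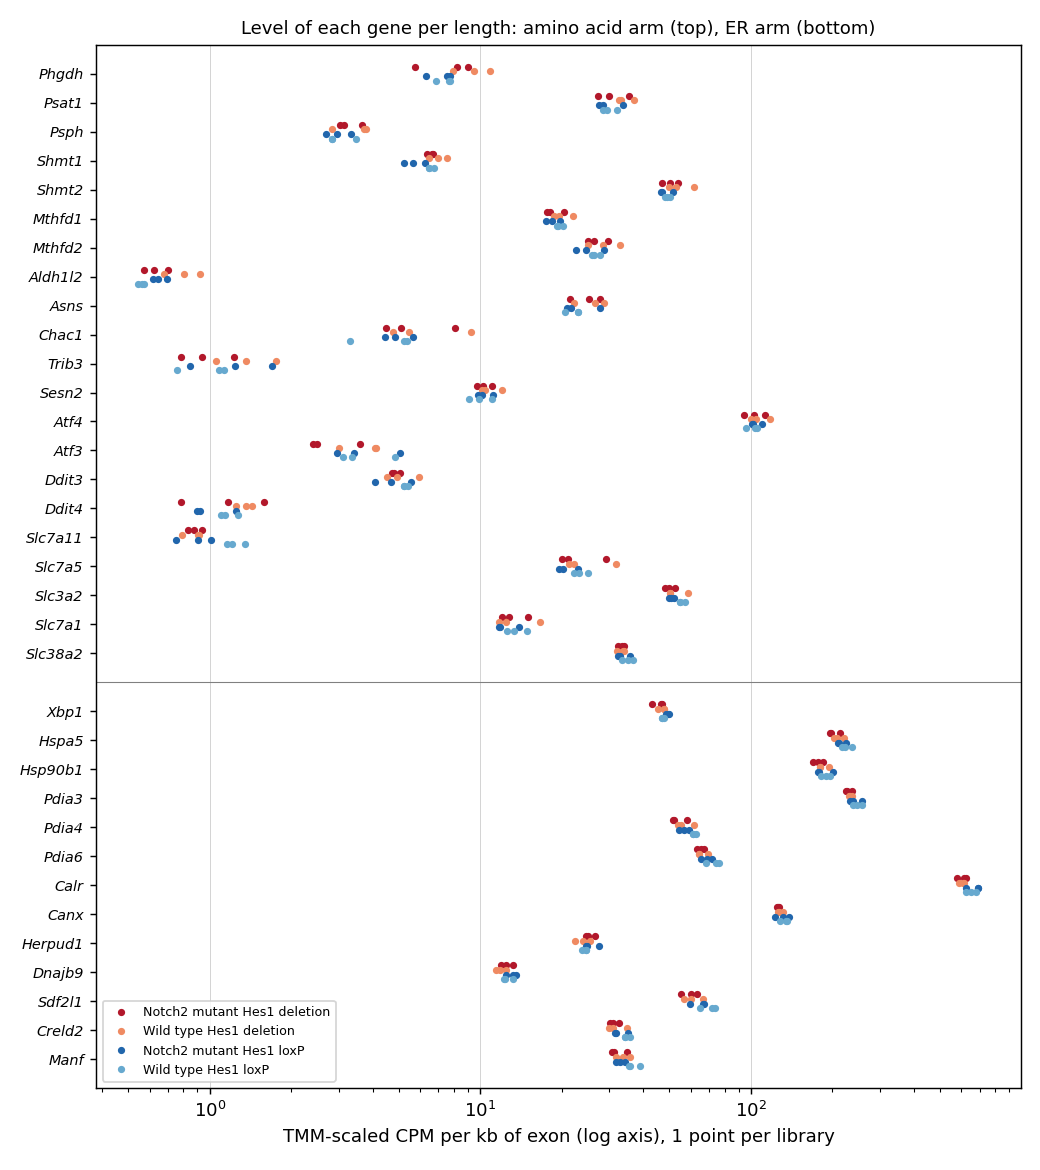
Level of each of the 34 genes in TMM-scaled CPM per kb of exon (log axis), with 1 point per library coloured by group, amino acid arm above and ER arm below. Calr at a mean of 632 and Aldh1l2 at 0.661 mark the ends of the range, and the 4 groups lie close together at nearly every gene.

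None of the 34 genes passed the threshold in any of the 5 comparisons (edgeR quasi-likelihood test, Benjamini-Hochberg adjusted p under 0.05 over 13403 genes). With Hes1 loxP, the Notch2 mutation changed 0.776% of all genes tested (104 genes, 19 higher and 85 lower) and none of the 34. With Hes1 deletion the Notch2 mutation changed 0.0149% of genes. Hes1 deletion changed 0.0373% of genes in wild type cells. The share in Notch2 mutant cells was also 0.0373%, and that of the interaction was 0.0%. With shares this small, a count of 0 among 34 genes is close to what the whole table shows. At an unadjusted edgeR p under 0.05, the members numbered 4, 2, 7, 3 and 2 in these 5 comparisons in the order given, against 14.2%, 6.69%, 5.93%, 4.76% and 3.78% of all genes. DESeq2 and limma-voom also called 0 members in each comparison, except that both called Slc7a11 for the Notch2 mutation with Hes1 loxP.

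The sizes of difference that the data allow are described by the 95% intervals of the log2 fold changes. Each interval is for 1 gene and is not adjusted for the number of genes, so an interval that leaves out 0 is not a call. In the ER arm all 13 intervals lay within 0.5 log2 units of 0 in every comparison. Their farthest bounds were -0.29 at Manf for the Notch2 mutation with Hes1 loxP, 0.22 at Dnajb9 for the Notch2 mutation with Hes1 deletion, -0.35 at Sdf2l1 for Hes1 deletion in wild type cells and -0.26 at Sdf2l1 for Hes1 deletion in Notch2 mutant cells. In the amino acid arm 16, 15, 15 and 17 of 21 intervals lay within 0.5 log2 units of 0 in these 4 comparisons. The widest belonged to Trib3, a pseudokinase that restrains ATF4, whose counts of 28 to 61 per library were among the lowest and whose bounds reached 0.92, -1.08, 1.06 and -0.93. Spread between libraries of 1 group differed between the arms: the median within-group SD was 0.15 log2 units in the amino acid arm, 0.07 in the ER arm and 0.11 over all genes tested.

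**Figure D2:**
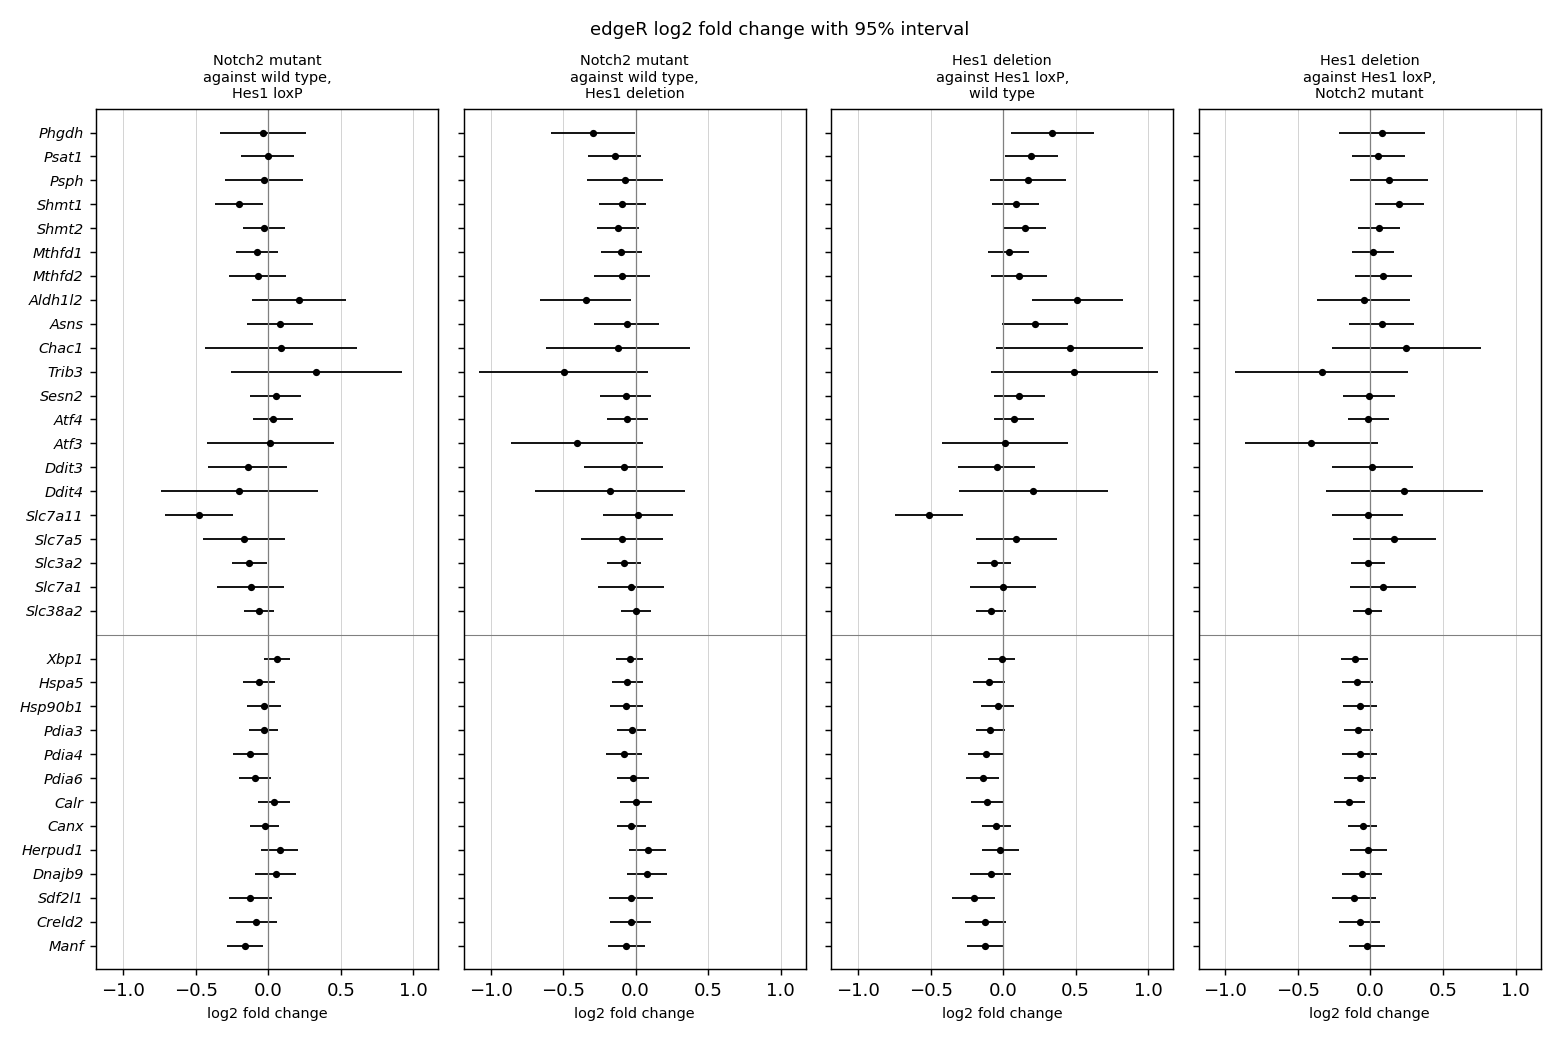
Log2 fold change (point) and 95% interval (bar) of each member in the 4 group comparisons, from the edgeR fit. ER arm intervals all lie within 0.5 log2 units of 0, whereas those of Trib3 reach beyond 0.92, and Slc7a11 is the amino acid arm gene farthest below 0 in both comparisons with wild type Hes1 loxP cells.

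Slc7a11 came closest to the threshold. The gene encodes the exchanger that imports cystine, the source of cysteine for glutathione, and lies at chr3:49892526-50443614 on the minus strand (GRCm38). Its level was 13.02, 11.5 and 12.2 CPM in Notch2 mutant Hes1 deletion libraries, 12.6, 11.0 and 12.7 with wild type Hes1 deletion, 12.6, 14.1 and 10.4 with Notch2 mutant Hes1 loxP and 18.8, 16.2 and 16.9 with wild type Hes1 loxP. Every wild type Hes1 loxP library stood above all 9 others, which overlapped each other. The log2 difference was -0.48 with an edgeR adjusted p of 0.0520 for the Notch2 mutation with Hes1 loxP. For Hes1 deletion in wild type cells it was -0.51 with an edgeR adjusted p of 0.316. These comparisons share the 3 wild type Hes1 loxP libraries, so they are not separate evidence. With the other alteration already present, the differences were 0.02 for the Notch2 mutation and -0.02 for Hes1 deletion, and the interaction of 0.49 had an edgeR adjusted p of 0.999. The call for the Notch2 mutation with Hes1 loxP depended on the setting: adjusted p was between 0.00149 and 0.219 over 19 alternatives, 6 of which called the gene lower. It was called without Notch2 mutant Hes1 loxP replicate 2 (-0.59, edgeR adjusted p = 0.0401) or with wild type Hes1 deletion replicate 3 left out (-0.48 and 0.0334). The osteoclast marker sums of the Notch2 mutant and wild type Hes1 loxP groups did not overlap either. Nor did the stromal marker sums of the wild type Hes1 deletion and Hes1 loxP groups. Between the Hes1 loxP groups 3 of 7 macrophage markers were also called lower. Another 2 of the 7 were higher at an unadjusted edgeR p under 0.05, and the macrophage sums overlapped. The part of all these markers in the differences of Slc7a11 was not tested.

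Transport genes other than Slc7a11 differed little. Slc3a2 encodes the heavy chain that pairs with Slc7a11 as well as with Slc7a5, the large neutral amino acid carrier. It had 176, 186 and 169 CPM in Notch2 mutant Hes1 deletion libraries, 178, 178 and 207 with wild type Hes1 deletion, 183, 179 and 176 with Notch2 mutant Hes1 loxP and 193, 193 and 202 with wild type Hes1 loxP. The Notch2 mutant and wild type libraries with Hes1 loxP did not overlap, yet the log2 difference of -0.13 did not pass (edgeR adjusted p = 0.307). Slc7a5, Slc7a1 (the cationic amino acid carrier) and Slc38a2 (a sodium-coupled neutral amino acid carrier) had log2 differences between -0.17 and 0.17 in the 4 group comparisons.

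The enzymes of serine synthesis had their highest group means in wild type Hes1 deletion cells. This was not particular to them: most of the amino acid arm did, except Slc7a11, Slc3a2, Slc38a2, Atf3 and Ddit3. Replicate 3 of that group was the highest of all 12 libraries at 17 of 21 genes of the arm, these enzymes among them. Differences without that library are given below. Phgdh catalyses the first step of the pathway. It measured 14.2, 22.4 and 20.3 CPM in Notch2 mutant Hes1 deletion libraries, 19.6, 23.5 and 26.9 with wild type Hes1 deletion, 15.7, 19.3 and 18.8 with Notch2 mutant Hes1 loxP and 19.1, 19.2 and 17.1 with wild type Hes1 loxP. The wild type Hes1 deletion libraries lay above the wild type Hes1 loxP libraries without overlap, with a log2 difference of 0.34 ± 0.14 (SE) that did not pass (edgeR adjusted p = 0.777). Phgdh lies 163 kb from Notch2 on chromosome 3. Both groups of the difference above lacked the Notch2 mutation. In Notch2 mutant and wild type cells the mean of Phgdh was 17.9 and 18.5 CPM with Hes1 loxP, and 19.0 and 23.4 with Hes1 deletion. Whether the proximity to Notch2 bears on the values in Notch2 mutant cells was not tested.

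Psat1, the aminotransferase of the second step, showed the same order of means. Its libraries gave 116, 151 and 128 CPM with the Notch2 mutation and Hes1 deletion, 139, 140.3 and 158 in wild type Hes1 deletion cells, 121, 143 and 117 in Notch2 mutant Hes1 loxP cells and 125, 136 and 121 in wild type Hes1 loxP cells. The difference between wild type Hes1 deletion and Hes1 loxP cells was 0.19 log2 units (edgeR adjusted p = 0.817), again without overlap. Psph, the phosphatase of the last step, differed by 0.17 between the same groups and its libraries overlapped.

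Aldh1l2 had the largest positive log2 difference of all members under Hes1 deletion in wild type cells. It measured 4.66, 4.28 and 5.24 CPM in Notch2 mutant Hes1 deletion libraries, 5.07, 6.05 and 6.90 with wild type Hes1 deletion, 5.22, 4.84 and 4.63 with Notch2 mutant Hes1 loxP and 4.09, 4.22 and 4.28 with wild type Hes1 loxP. Both groups with a single alteration lay above the wild type Hes1 loxP group without overlap. The log2 difference for Hes1 deletion in wild type cells was 0.51 ± 0.15 (SE) with an edgeR adjusted p of 0.516, and for the Notch2 mutation with Hes1 loxP 0.22 with an edgeR adjusted p of 0.576. The exons of Aldh1l2 share 1056 bases with the antisense gene D10Wsu102e, and the strand setting of the counting is not given, so some of its reads may belong to that gene.

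Among the other one-carbon enzymes, Shmt1, the cytosolic serine hydroxymethyltransferase, was lowest in Notch2 mutant Hes1 loxP cells. Its level was 25.8, 25.9 and 24.6 CPM in Notch2 mutant Hes1 deletion libraries, 27.2, 25.0 and 29.1 with wild type Hes1 deletion, 20.3, 24.2 and 21.8 with Notch2 mutant Hes1 loxP and 25.1, 26.3 and 25.0 with wild type Hes1 loxP. The 3 Notch2 mutant Hes1 loxP libraries lay below all 9 others. The log2 differences of -0.20 (Notch2 mutation with Hes1 loxP, edgeR adjusted p = 0.250) and 0.20 (Hes1 deletion in Notch2 mutant cells, edgeR adjusted p = 0.976) share that group and did not pass. Shmt2 differed by 0.15 for Hes1 deletion in wild type cells (edgeR adjusted p = 0.817). Mthfd1 and Mthfd2, the cytosolic and mitochondrial folate interconverting enzymes, stayed between -0.10 and 0.11 log2 units in the 4 group comparisons.

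**Figure D3:**
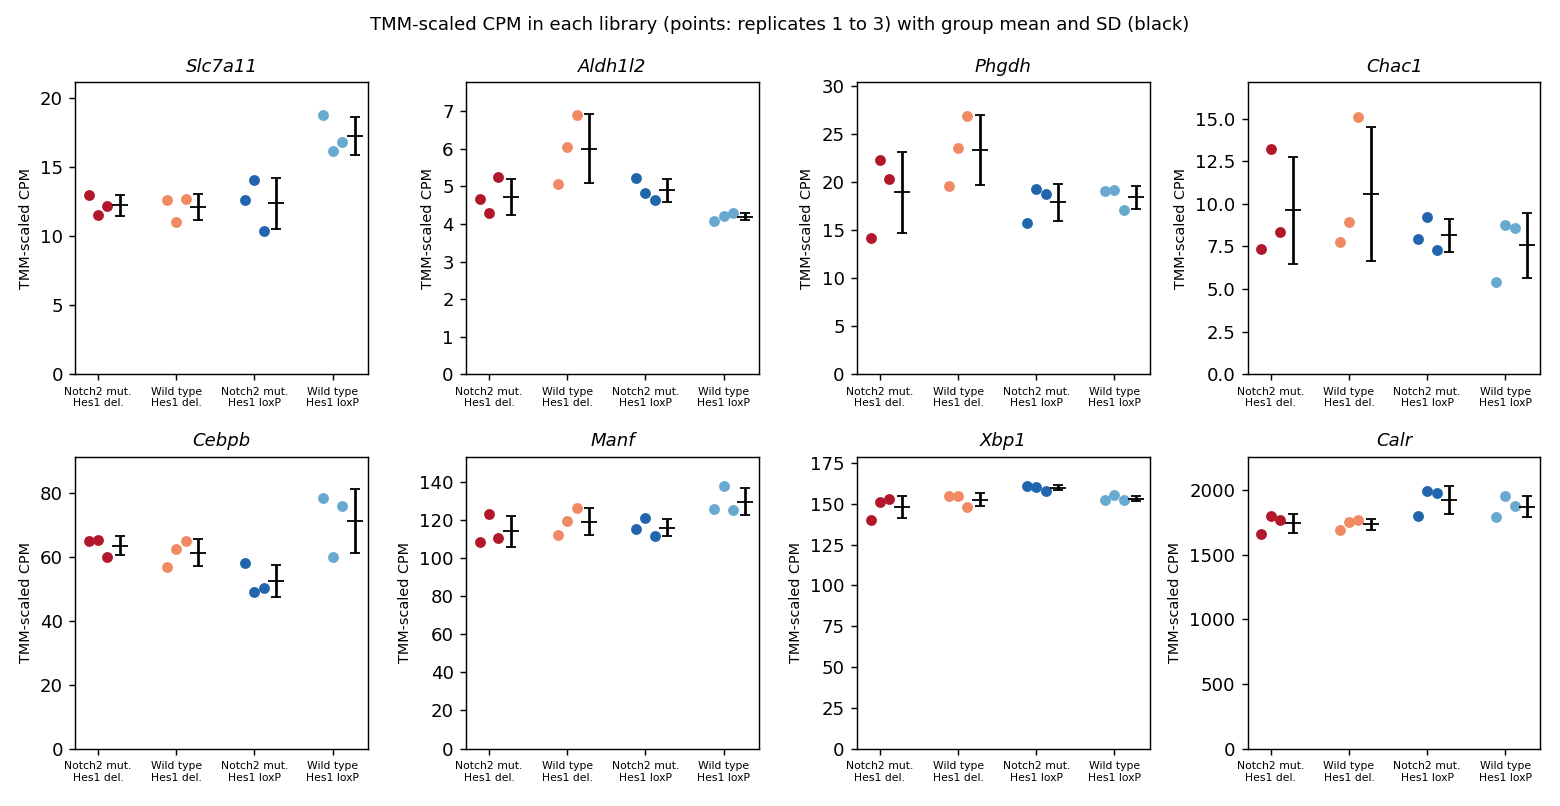
TMM-scaled CPM of 8 genes in each library (points, replicates 1 to 3 from left to right) with the group mean and SD (black, n = 3), groups from left to right Notch2 mutant Hes1 deletion, wild type Hes1 deletion, Notch2 mutant Hes1 loxP and wild type Hes1 loxP. Slc7a11 is above 16 CPM in the wild type Hes1 loxP group only, and Calr is lower in each Hes1 deletion group than in the Hes1 loxP group of its genotype.

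In each of the 4 group comparisons the libraries overlapped at Atf4 itself and at its target Ddit3. Atf4 transcripts stood at 223, 265 and 242 CPM in Notch2 mutant Hes1 deletion libraries, 237, 246 and 276 with wild type Hes1 deletion, 238, 259 and 239 with Notch2 mutant Hes1 loxP and 226, 249 and 245 with wild type Hes1 loxP. The largest of the 4 differences of Atf4, 0.07 log2 units for Hes1 deletion in wild type cells, had a 95% interval of -0.06 to 0.21. These are levels of transcript; ATF4 is set mainly by translation, which was not measured. Ddit3 encodes CHOP, a transcription factor that ATF4 induces under lasting stress. It was scarce, at 8.63, 8.20 and 8.05 CPM with both alterations, 7.72, 8.44 and 10.2 in wild type Hes1 deletion cells, 6.98, 8.04 and 9.49 in Notch2 mutant Hes1 loxP cells and 9.26, 8.95 and 8.96 in wild type Hes1 loxP cells, and the 2 groups of each comparison overlapped. Its exons overlap a second Ddit3 ID on the same strand and the antisense gene Mars, so reads over shared bases may be lost or mixed.

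Among the other ATF4 targets, Chac1, which degrades glutathione and is a sensitive ATF4 target, was examined after its values were seen. Its libraries gave 7.33, 13.2 and 8.36 CPM with both alterations, 7.78, 8.93 and 15.1 in wild type Hes1 deletion cells, 7.93, 9.22 and 7.29 in Notch2 mutant Hes1 loxP cells and 5.38, 8.74 and 8.57 in wild type Hes1 loxP cells. In each Hes1 deletion group 1 library stood well above the other 2, and the log2 difference of 0.46 in wild type cells had an SE of 0.24. Asns, asparagine synthetase, also outside the rule, had 58.7, 75.6 and 68.7 CPM with both alterations, 60.8, 72.8 and 78.6 in wild type Hes1 deletion cells, 57.2, 75.7 and 59.4 in Notch2 mutant Hes1 loxP cells and 56.4, 62.8 and 62.6 in wild type Hes1 loxP cells. All its groups overlapped, and it differed by 0.22 ± 0.11 (SE) log2 units in the same comparison, with an edgeR adjusted p of 0.846. Trib3, Atf3 (a stress-induced repressor), Sesn2 and Ddit4 (both inhibitors of the growth kinase mTORC1) had differences between -0.49 and 0.49 log2 units in the 4 group comparisons, none past the threshold.

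Within a group, 1 library often led most genes of both arms. Wild type Hes1 deletion replicate 3 held the highest value of its group at 20 of 21 genes, Atf3 being the exception, and the highest of all 12 libraries at 17 of 21 genes (81%), against 38.2% and 12.3% of all genes tested. Its CPM was a median of 1.18 times the mean of the other 2 libraries of its group, with a range from 0.732 at Atf3 to 1.81 at Chac1. In the ER arm this library was the highest of its group at 11 of 13 genes and the highest of all 12 at 0, with a median ratio of 1.08. Replicate 2 was the highest of the Notch2 mutant Hes1 deletion group at 16 of 21 amino acid and 10 of 13 ER genes, against 34.6% of all genes, and replicate 1 of that group was the lowest at 12 of 13 ER genes, against 33.3%. Replicate 2 of the Notch2 mutant Hes1 loxP group was its highest at 15 of 21 and 10 of 13 genes of the arms, against 33.9% of all genes. Replicate 2 of the wild type Hes1 loxP group was its highest at 10 of 21 and 7 of 13, against 32.5%. Genes of 1 library share their RNA and are not independent, so these counts are descriptions.

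In the first 3 of these groups the libraries that led had the lowest summed osteoclast markers of their groups and the highest summed cell cycle genes. Osteoclast markers summed to 35958 CPM in Notch2 mutant Hes1 deletion replicate 2, against 38749 and 40644 in its group. They summed to 29466 in wild type Hes1 deletion replicate 3, against 36326 and 35615 in its group, and to 44869 in Notch2 mutant Hes1 loxP replicate 2, against 47475 and 50636 in its group. The 12 cell cycle genes (such as Mki67 and Top2a) summed to 2069, 2250.2 and 2065 CPM in these libraries, against at most 1879, 2059 and 1855 in the others of their groups. In the wild type Hes1 loxP group, replicate 2 had 38024 CPM of osteoclast markers against 37853 and 40774, and 2173 CPM of cell cycle genes against 2059.7 and 2005. The part of these sums in the values of the arms was not tested. Without wild type Hes1 deletion replicate 3, the log2 differences under Hes1 deletion in wild type cells were 0.40 at Aldh1l2, 0.23 at Phgdh, 0.14 at Asns, 0.13 at Psat1, 0.12 at Chac1, 0.06 at Shmt2 and 0.00 at Atf4.

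**Figure D4:**
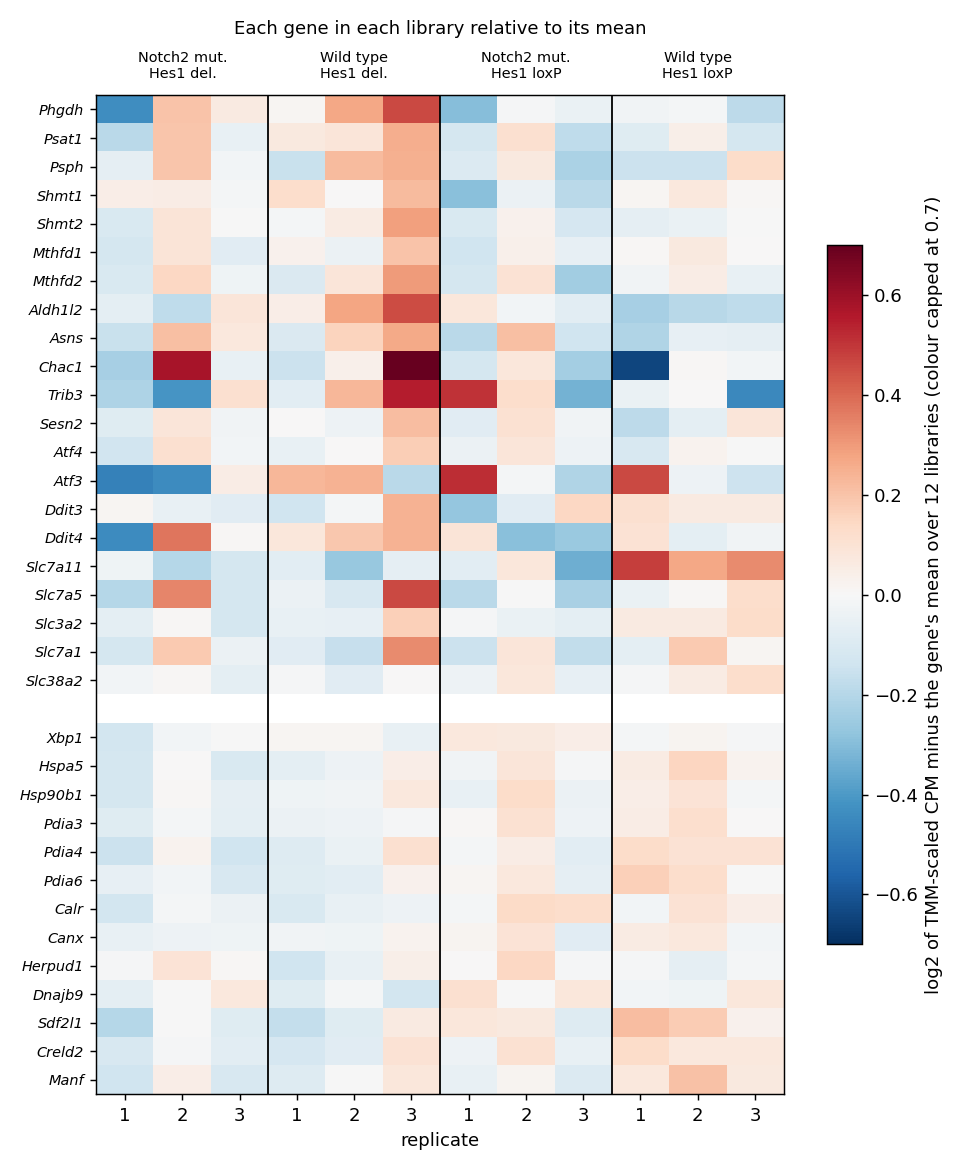
Each member (rows) in each of the 12 libraries (columns, by group) as log2 of TMM-scaled CPM minus its mean over the 12 libraries, colour capped at 0.7. The column of wild type Hes1 deletion replicate 3 is high over most of the amino acid arm, where it is the highest library at 17 of 21 genes.

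Over the amino acid arm as a list, the median log2 difference was -0.03 for the Notch2 mutation with Hes1 loxP (7 genes above 0 and 14 below, against 49.1% of all genes below) and -0.09 for the Notch2 mutation with Hes1 deletion (2 above, 19 below, against 49.4% of all genes below). It was 0.11 for Hes1 deletion in wild type cells (16 above, 5 below) and 0.05 for Hes1 deletion in Notch2 mutant cells (13 above, 8 below), while the median over all genes tested was between -0.00 and 0.00 in each. Without wild type Hes1 deletion replicate 3 the medians were -0.01 for the Notch2 mutation with Hes1 deletion and 0.03 for Hes1 deletion in wild type cells. Without Notch2 mutant Hes1 deletion replicate 2 the median for Hes1 deletion in Notch2 mutant cells was -0.03, with the other sign. With Notch2 mutant Hes1 loxP replicate 2 left out, this median was 0.11, and that for the Notch2 mutation with Hes1 loxP was -0.11. The median for the Notch2 mutation was -0.00 without Notch2 mutant Hes1 loxP replicate 3 and -0.17, with Hes1 deletion, without wild type Hes1 deletion replicate 1.

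The ER arm was measured with smaller spread and was slightly lower after Hes1 deletion at every gene, though no gene passed the test. All 13 log2 differences were below 0 for Hes1 deletion in wild type cells, with a median of -0.10, and all 13 for Hes1 deletion in Notch2 mutant cells, with a median of -0.07. Over all genes tested, 49.5% and 51.0% were below 0. Related lists, counted further below, were above 0 at few genes in the same 2 comparisons, except folding and disulfide enzymes in wild type cells. ER-associated degradation was above 0 at 5 and 6 of 23 genes (medians -0.04 and -0.03). Translocation and secretory transport was above 0 at 9 and 8 of 35 (-0.03 and -0.03). Folding and disulfide enzymes were above 0 at 14 and 6 of 28 (0.01 and -0.04). These comparisons share no library. Genes of an arm moved together within libraries, as described above, and are not independent. Counts of genes below 0 in both arms and in the related lists are therefore descriptions. Over 19 alternatives 12 or 13 of the ER arm genes were below 0 in wild type cells, with medians from -0.13 to -0.07. In Notch2 mutant cells 11 to 13 were, with medians from -0.10 to -0.04. The least negative of these medians came without wild type Hes1 loxP replicate 2 and without Notch2 mutant Hes1 loxP replicate 2. Beside this, the summed osteoclast markers given above overlapped between the Hes1 deletion and Hes1 loxP groups of neither genotype and were lower with Hes1 deletion. Of the 9 markers 1 was called in each genotype, Ctsk, the bone-degrading protease cathepsin K, with a log2 difference of -0.99 in wild type cells (edgeR adjusted p = 4.84e-07) and of -1.11 in Notch2 mutant cells (edgeR adjusted p = 8.89e-08), while the median of the 9 was -0.04 and -0.10. No other of the 9 was lower at an unadjusted edgeR p under 0.05 in either genotype, so the lower sums are not a clear fall of the whole list. The part of these markers in the ER arm values was not tested. For the Notch2 mutation the ER arm medians were -0.03 with Hes1 loxP (9 of 13 below 0) and -0.03 with Hes1 deletion (10 of 13 below 0). Without Notch2 mutant Hes1 loxP replicate 2 the median with Hes1 loxP was -0.09, and without replicate 3 of that group it was -0.00. The median with Hes1 deletion was -0.01 without Notch2 mutant Hes1 deletion replicate 1, -0.06 without its replicate 2, and -0.01 with 7 of 13 genes below 0 without wild type Hes1 deletion replicate 3.

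Calr showed the Hes1 deletion difference without overlap in both genotypes. It measured 1664, 1799 and 1765 CPM in Notch2 mutant Hes1 deletion libraries, 1689, 1750.2 and 1771 with wild type Hes1 deletion, 1802, 1997 and 1981 with Notch2 mutant Hes1 loxP and 1791, 1952 and 1877 with wild type Hes1 loxP. The log2 differences were -0.14 ± 0.05 (SE) in Notch2 mutant cells (edgeR adjusted p = 0.835) and -0.11 ± 0.05 (SE) in wild type cells (edgeR adjusted p = 0.841). Groups that did not overlap in the lower direction made up 5.48% and 5.18% of all genes in these comparisons, and 2 and 3 of the 34 members. Pdia3 also did not overlap in wild type cells, at a difference of -0.09.

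Hspa5, which carries the ER stress response element shown above, is the usual gauge of the unfolded protein response. It stood at 825, 903 and 838 CPM in Notch2 mutant Hes1 deletion libraries, 859, 878 and 931 with wild type Hes1 deletion, 884, 953 and 895 with Notch2 mutant Hes1 loxP and 939, 999 and 917 with wild type Hes1 loxP. The groups of each of the 4 comparisons overlapped. The largest of these 4 differences, -0.10 log2 units for Hes1 deletion in wild type cells, had a 95% interval of -0.21 to 0.01.

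Xbp1, the transcription factor of the IRE1 branch, was highest in Notch2 mutant Hes1 loxP cells. It had 140.2, 151 and 153 CPM in Notch2 mutant Hes1 deletion libraries, 155, 155 and 148 with wild type Hes1 deletion, 161, 161 and 158 with Notch2 mutant Hes1 loxP and 152, 155 and 152 with wild type Hes1 loxP. The 3 Notch2 mutant Hes1 loxP libraries lay above all others, but the log2 differences of 0.06 against wild type and -0.11 for Hes1 deletion in Notch2 mutant cells did not pass (edgeR adjusted p = 0.579 and 0.976). Gene counts hold spliced and unspliced Xbp1 together, so the splicing by IRE1 was not measured.

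Manf, a secreted protein that the unfolded protein response induces, had 108, 123 and 110.2 CPM with both alterations, 112, 119 and 126 in wild type Hes1 deletion cells, 115, 121 and 112 in Notch2 mutant Hes1 loxP cells and 126, 138 and 125 in wild type Hes1 loxP cells. The Hes1 loxP groups did not overlap, with a log2 difference of -0.16 for the Notch2 mutation (edgeR adjusted p = 0.220). Manf shares exon bases with Rbm15b on the same strand. Pdia4, a disulfide isomerase, gave 124, 139 and 124 CPM with both alterations, 129, 133 and 148 in wild type Hes1 deletion cells, 136, 142 and 131 in Notch2 mutant Hes1 loxP cells and 150.2, 147 and 147 in wild type Hes1 loxP cells. It too did not overlap between the Hes1 loxP groups, and its difference for the Notch2 mutation was -0.12 (edgeR adjusted p = 0.355).

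Sdf2l1, a stromal-derived-factor-like protein of chaperone complexes in the ER, measured 61.3, 70.2 and 66.4 CPM with both alterations, 62.6, 66.3 and 73.7 in wild type Hes1 deletion cells, 74.3, 73.8 and 66.1 in Notch2 mutant Hes1 loxP cells and 81.8, 79.6 and 71.8 in wild type Hes1 loxP cells. Hes1 deletion in wild type cells came with a log2 difference of -0.20 (edgeR adjusted p = 0.683), and the libraries overlapped. Pdia6, another disulfide isomerase, had 245, 251 and 236 CPM with both alterations, 240.3, 242 and 260.3 in wild type Hes1 deletion cells, 258, 268 and 244 in Notch2 mutant Hes1 loxP cells and 287, 277 and 255 in wild type Hes1 loxP cells. Its difference in the same comparison was -0.14 (edgeR adjusted p = 0.749), with overlapping libraries. Hsp90b1, Canx (the membrane-bound partner of calreticulin), Herpud1 (a component of ER-associated degradation), Dnajb9 and Creld2 lay between -0.12 and 0.08 log2 units in the 4 group comparisons.

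Members whose groups did not overlap numbered 7 for the Notch2 mutation with Hes1 loxP (2 higher and 5 lower, against 9.84% and 8.49% of all genes in these directions). There was none for the Notch2 mutation with Hes1 deletion, against 6.06% and 6.41% of all genes. There were 6 for Hes1 deletion in wild type cells (3 higher and 3 lower, against 5.11% and 5.18%) and 3 for Hes1 deletion in Notch2 mutant cells (1 higher and 2 lower, against 5.11% and 5.48%). In the interaction, Aldh1l2 at -0.56 ± 0.21 (SE) and Slc7a11 at 0.49 ± 0.16 (SE) had the smallest unadjusted edgeR p, and their edgeR adjusted p was 0.999 for both. The interaction medians were -0.05 in the amino acid arm (13 of 21 below 0) and 0.01 in the ER arm (4 of 13 below 0), against 50.8% of all genes below 0. The amino acid median of the interaction was 0.06, with 8 of 21 genes below 0, when wild type Hes1 deletion replicate 3 was left out, and -0.14 when Notch2 mutant Hes1 deletion replicate 2 was.

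Around the members, 7 lists of pathway genes were counted: stress kinases and sensors (20 genes tested), other ATF4 response genes (26), aminoacyl-tRNA synthetases (23), folate and methionine cycle (26), folding and disulfide enzymes (28), ER-associated degradation (23) and translocation and secretory transport (35). A single gene was called in 1 of the 5 comparisons, Cebpb, whose protein C/EBPbeta pairs with ATF4 on the C/EBP-ATF response element. That comparison was the Notch2 mutation with Hes1 loxP, where 0.776% of all genes tested were called. With such a share, 1 call over these lists is close to what the whole table shows. Cebpb had 64.9, 65.3 and 60.0 CPM in Notch2 mutant Hes1 deletion libraries and 56.7, 62.4 and 64.7 with wild type Hes1 deletion. Its level was 58.0, 48.9 and 50.2 with Notch2 mutant Hes1 loxP and 78.2, 59.7 and 75.7 with wild type Hes1 loxP. With Hes1 loxP it fell in Notch2 mutant cells, with a log2 difference of -0.44 ± 0.09 (SE, edgeR adjusted p = 0.0243), and these groups did not overlap. The call was lost without any 1 of 4 libraries, Notch2 mutant Hes1 loxP replicates 2 and 3 and wild type Hes1 loxP replicates 1 and 3, with log2 differences of -0.42 to -0.38 and adjusted p of 0.0660 to 0.116. As at Slc7a11, the osteoclast marker sums differed between these groups without overlap and 3 of 7 macrophage markers were called lower. Another 2 of the 7 were higher at an unadjusted edgeR p under 0.05, and the macrophage sums overlapped. The part of these markers was not tested. The interaction for Cebpb was 0.49 ± 0.13 (SE) with an edgeR adjusted p of 0.999.

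Other pathway genes did not pass. In the Notch2 mutation with Hes1 loxP, Eif4ebp1, a repressor of translation that ATF4 induces, differed by 0.17 (edgeR adjusted p = 0.104), Vegfa, a secreted growth factor, by 0.27 (0.125) and Sdf2, a paralogue of Sdf2l1, by 0.23 (0.167). Atf6, a sensor of unfolded protein, differed by 0.15 (edgeR adjusted p = 0.230), with 197, 196 and 211 CPM in Notch2 mutant Hes1 deletion libraries, 212, 193 and 179 with wild type Hes1 deletion, 217, 212 and 207 with Notch2 mutant Hes1 loxP and 189, 190.4 and 195 with wild type Hes1 loxP. Outside the rule, Eif2ak3, which encodes the ER stress kinase PERK, differed by 0.12 (edgeR adjusted p = 0.458), and Ern1, which encodes IRE1alpha, by 0.07 (edgeR adjusted p = 0.654).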

How the data were processed

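RNA-seq libraries (stranded mRNA, paired reads of 75 bp, sequenced as 1 pool, per the labels' protocols) of 12 osteoclast cultures in 4 groups of 3 were used. The authors deposited whole-number read counts per Ensembl gene ID. HISAT2, SAMtools, Picard, HTSeq, DESeq2 and the build GRCm38 are named in the submitters' processing notes; no source used here gives their versions, the annotation or how strand was treated, so antisense or overlapping genes can share or lose reads. Each table held 55414 IDs, of which 52133 had a GENCODE M21 name, and 5 summary rows (15.8% to 19.0% of a table), which were left out of library sizes and tests. Unnamed IDs held 0.0880% to 0.167% of counts. Single-cell data named in the study's design were not analysed here.

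Genes were kept by filterByExpr (minimum count 10, minimum total 15) and scaled by TMM. The edgeR quasi-likelihood test was fitted to all 12 libraries with 4 group means, and Benjamini-Hochberg adjusted p under 0.05 over 13403 genes was the threshold. The Notch2 mutation was tested within each Hes1 state, Hes1 deletion within each Notch2 genotype, and then their interaction. The SE was taken as the absolute log2 fold change divided by the square root of the F statistic. Intervals used it with a t distribution. CPM values are TMM-scaled. The code was tested on simulated data. Versions were R 4.3.3, edgeR 4.0.16, limma 3.58.1, DESeq2 1.42.0, Python 3.11.15, pandas 2.3.3, scipy 1.17.1 and matplotlib 3.10.9. Alternatives were other size factors, no filter, a filter at mean count 50, DESeq2, limma-voom, a replicate block, only the groups compared, and each library left out.

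Members and gene lists were chosen with earlier results of these data known. Values in every library are given for Atf4, Ddit3, Xbp1 and Hspa5, for the 4 members of each arm with the smallest unadjusted p in any comparison, and for up to 10 members whose groups did not overlap, by size of difference. Pathway genes are named where called, otherwise up to 3 a list. Chac1, Asns, Eif2ak3, Ern1 and the genes named for levels or ranges were added after their values were seen. None of the 12 pairs of libraries within groups agreed within sampling noise (chi-square per gene of 2.40 to 8.41); pairs between groups were not checked.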

Additional observations from a re-analysis of the deposited data

How the results depend on the processing

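No member was called in the reported fit. For the Notch2 mutation with Hes1 loxP the number called was 1 with RLE size factors, 1 with no filter, 1 with DESeq2 and 1 with limma-voom, and 0 to 1 when a library was left out; each time the gene was Slc7a11. For Hes1 deletion in wild type cells it was 1, Slc7a11, with no filter. The cause was not tested. Of 3186 member values under 19 alternatives, 3179 stayed on the same side of the threshold, 7 were newly called and 151, called in neither, had the other sign. Of 150 medians of the arms under alternatives, 148 moved by less than the spread between replicates, and 7 had the other sign. The medians were themselves small, so this count does not show that they were stable. For the Notch2 mutation with Hes1 deletion, the amino acid arm median went from -0.09 to -0.01 without wild type Hes1 deletion replicate 3. Genes below 0 went from 19 to 11 of 21. The ER arm median for the Notch2 mutation with Hes1 loxP ranged from -0.09 to -0.00 and that of the interaction from -0.02 to 0.05 when a library was left out. Over all genes, the Notch2 mutation with Hes1 loxP gave 104 calls, against 657 of 25080 with no filter, 242 with DESeq2 and 26 to 289 when a library was left out. Hes1 deletion in wild type cells gave 5, against 135 with no filter and 26 without wild type Hes1 deletion replicate 3. The interaction gave 0, against 63 and 12 in the same settings. With no filter, the Notch2 mutation with Hes1 deletion gave 138 calls and Hes1 deletion in Notch2 mutant cells 110. Cebpb, whose alternatives were chosen after seeing the data, was also called for Hes1 deletion in Notch2 mutant cells and in the interaction with no filter (edgeR adjusted p = 0.0150 and 0.000293). With the replicate number as a block, 0 members were called in each comparison and 148 genes over all for the Notch2 mutation with Hes1 loxP. Correlations of the deviations of libraries with the same number were -0.0993 to 0.139. With 3 libraries a group, such correlations cannot exclude a shared batch or pairing. The labels state none, and the numbers were not taken as pairs. Depth limits the low genes most: Ddit4 had 20 to 47 counts per library and Trib3 28 to 61.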
